A study of Mus musculus with 2 samples.

Results

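Chemokines, their receptors and inflammatory cytokines were followed in the spleen of male mice, on 1 array hybridised with RNA from Loxl3+/+ (wild-type) animals and 1 with RNA from animals labelled Loxl3-/- (knockout). The group was named from a list of 49 genes, of 20655 genes that the array's probes could be matched to. It holds 19 inflammatory chemokine ligands, 5 homeostatic chemokine ligands, 13 chemokine receptors and 12 cytokines. Non-control probes were assigned by accession, which gave 48 of the 49 genes at least 1 probe and left Cxcl11 without one. Both groups were untreated and were described as healthy, and neither the age, the strain, the part of Loxl3 that was deleted, nor whether several spleens were pooled is given in the sources used here. With 1 array per group there is no replicate check and no test, so each value describes these 2 arrays.

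Chemokines are small secreted proteins that guide leukocytes along concentration gradients, and their receptors couple to inhibitory G proteins. In the spleen, fibroblastic stroma makes the homeostatic ligands Cxcl12, Cxcl13 and Ccl19, which hold B cells, T cells and dendritic cells in the white pulp, whereas inflammatory ligands such as Cxcl1, Cxcl2 and Ccl20 are induced by NF-kB, a transcription factor of the inflammatory response. Cytokines such as Il1b, Ifng and Tgfb1 act on receptors of other classes and set how leukocytes are activated or restrained. Loxl3 encodes a lysyl oxidase, a family best known for crosslinking collagen and elastin.

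The promoter windows below are the 250 bases before the start of the 2 members highest on the knockout-labelled array (Tgfb1 and Cxcl12) and the lowest member (Ifng), and of the members that held an NF-kB motif and were not well above background on either array (Ccl20, Il6, Cxcl1 and Cxcl2). They are from RefSeq, build GRCm38.p6, and each lies on the plus strand upstream of the first exon. Their places are chr7:25686752-25687001 for Tgfb1, chr6:117168285-117168534 for Cxcl12, chr10:118440796-118441045 for Ifng, chr1:83116516-83116765 for Ccl20, chr5:30012864-30013113 for Il6, chr5:90890995-90891244 for Cxcl1 and chr5:90903649-90903898 for Cxcl2. Capitals mark a match, on either strand, to 1 of 4 motifs: the STAT motif TTCNNNGAA, the AP-1 motif TGANTCA, the TATA box TATAAA and a 10-base NF-kB consensus. Which windows are printed was settled after the differences and the matches had been seen.
Tgfb1: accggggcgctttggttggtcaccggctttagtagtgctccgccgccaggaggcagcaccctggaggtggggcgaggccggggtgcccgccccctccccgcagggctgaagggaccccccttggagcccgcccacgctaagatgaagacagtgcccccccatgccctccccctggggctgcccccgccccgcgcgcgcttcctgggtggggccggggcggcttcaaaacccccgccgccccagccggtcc
Cxcl12: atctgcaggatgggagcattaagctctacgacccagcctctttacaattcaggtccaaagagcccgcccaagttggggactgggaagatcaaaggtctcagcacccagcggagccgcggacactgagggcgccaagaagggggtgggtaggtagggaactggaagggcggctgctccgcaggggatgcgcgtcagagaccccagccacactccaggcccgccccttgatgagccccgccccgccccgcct
Ifng: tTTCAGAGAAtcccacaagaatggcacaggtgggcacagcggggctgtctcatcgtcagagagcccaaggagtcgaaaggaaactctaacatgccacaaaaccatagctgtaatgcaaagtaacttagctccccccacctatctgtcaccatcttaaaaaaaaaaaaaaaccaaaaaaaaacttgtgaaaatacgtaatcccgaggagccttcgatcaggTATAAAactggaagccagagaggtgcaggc
Ccl20: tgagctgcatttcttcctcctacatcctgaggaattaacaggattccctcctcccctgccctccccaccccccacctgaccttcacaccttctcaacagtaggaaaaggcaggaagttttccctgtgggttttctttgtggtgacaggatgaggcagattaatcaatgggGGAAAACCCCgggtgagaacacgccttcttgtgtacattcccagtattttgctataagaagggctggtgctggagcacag
Il6: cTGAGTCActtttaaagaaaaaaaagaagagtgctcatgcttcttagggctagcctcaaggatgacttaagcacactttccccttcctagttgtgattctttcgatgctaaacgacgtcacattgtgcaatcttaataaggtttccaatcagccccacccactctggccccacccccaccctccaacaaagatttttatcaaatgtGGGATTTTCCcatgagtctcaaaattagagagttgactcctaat
Cxcl1: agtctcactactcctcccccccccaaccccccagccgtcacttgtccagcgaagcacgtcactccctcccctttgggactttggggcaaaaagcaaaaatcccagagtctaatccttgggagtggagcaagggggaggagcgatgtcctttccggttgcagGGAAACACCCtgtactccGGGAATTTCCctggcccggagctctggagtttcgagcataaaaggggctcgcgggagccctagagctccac
Cxcl2: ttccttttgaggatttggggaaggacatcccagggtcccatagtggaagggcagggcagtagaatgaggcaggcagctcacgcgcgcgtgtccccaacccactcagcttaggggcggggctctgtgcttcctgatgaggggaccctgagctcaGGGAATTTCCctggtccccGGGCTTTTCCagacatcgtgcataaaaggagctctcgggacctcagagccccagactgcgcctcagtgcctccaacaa

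The windows of Tgfb1 and Cxcl12, the members highest on the knockout-labelled array, held none of the 4 motifs and had a GC content of 75.2% and 64.4%, against a median of 52.4% over all windows. The window of Ifng, the lowest member, had a GC content of 45.2%, with a STAT motif at its far end and a TATA box near the start of the gene. RefSeq gave 42 windows for 37 of the 49 members. The NF-kB motif stood in 7 of the 42 (16.7%) and in 1.41% of all 32851 windows of the same length. A TATA box stood in 10 of the 42 windows (23.8%) and in 12.4% of all, an AP-1 motif in 7 (16.7%) and in 6.75%, and a STAT motif in 4 (9.52%) and in 7.02%. The 7 members with an NF-kB motif were Ccl20, Il6, Cxcl1, Cxcl2, Il16, Ccr3 and Ccl9. Such matches describe letters and are not evidence of binding. In the windows of Cxcl1 and Cxcl2, ligands that recruit neutrophils, the NF-kB motif occurred at more than 1 place.

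Of the 48 members with a probe, 38 were well above background, by the scanner software's own decision, on at least 1 array. Of these, 37 were so on both, and Ccr1, a receptor of inflammatory ligands, was so in wild type only. The other 10 did not clear background on either array. They were the ligands Ccl7, Ccl17, Ccl20, Ccl22, Cxcl1, Cxcl2 and Cxcl14, the receptor Ccr4, and the cytokines Il6 and Il10. Their signals ran from 8.66 (Cxcl2) to 49.7 (Ccr4) in wild type and from 11.9 (Cxcl2) to 54.4 (Ccr4) for the other array, so for them no difference is given. Il10, an inhibitory cytokine printed on 10 spots, had spot signals of 34.1 to 55.5 in wild type and 42.9 to 66.5 on the other array over the 9 spots used on each, and these ranges overlapped.

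Signals below are background-corrected intensities before scaling. A difference is the log2 value on the knockout-labelled array less that on the wild-type array, after each array was divided by its own 75th percentile, which was 974 for wild type and 1400 for the array labelled knockout. That scaling takes 0.52 off every unscaled log2 difference, so a gene with equal signals on both arrays has a scaled value of −0.52. The error after ± is that of the scanner software, carried to the log2 difference, and holds no variation between animals.

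**Figure D1:**
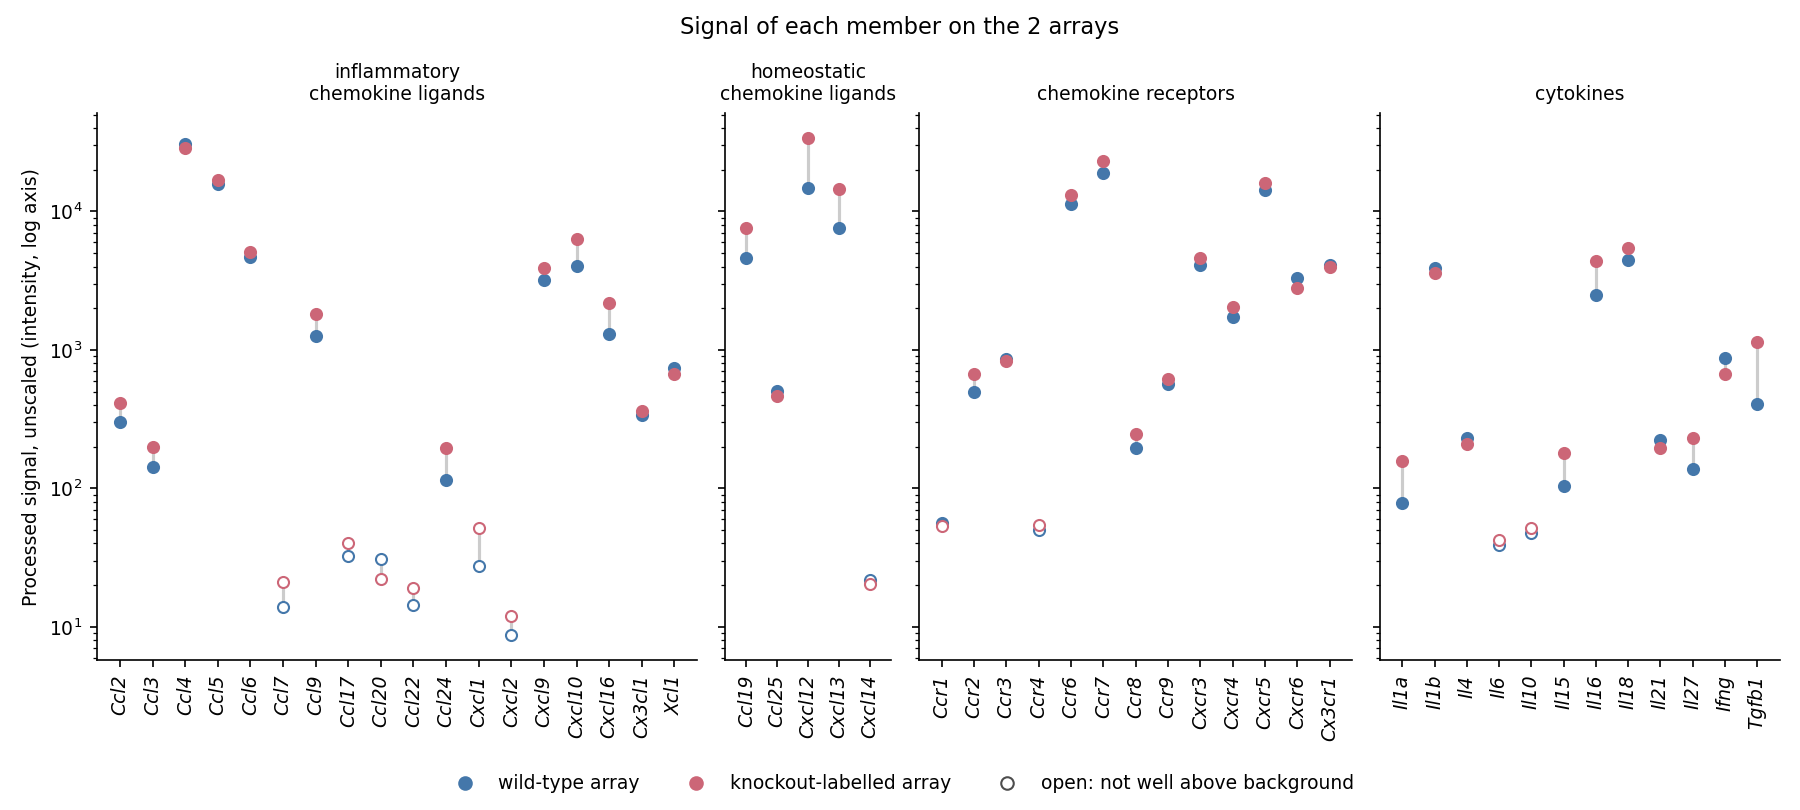
Unscaled processed signal of the 48 members with a probe (intensity, log axis) on the wild-type array (blue) and the knockout-labelled array (red), by role. Open points were not well above background. Tgfb1 and Cxcl12 have the widest gaps with the knockout-labelled array on top (404 against 1141, and 14838 against 34001), and the open points lie at the bottom of their panels.

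No member differed by 2-fold or more between the arrays. Of the 13714 genes measured, 2.11% stood 2-fold or more above wild type on the knockout-labelled array and 1.98% stood 2-fold or more below. At 1.5-fold, a log2 difference of 0.58, Tgfb1 and Cxcl12 were higher, 2 of 38 members or 5.26% against 7.49% of all genes. Lower at 1.5-fold were 8 of 38 members, or 21.1% against 9.29% of all genes: the cytokines Ifng, Il21, Il4 and Il1b, the receptor Cxcr6, and the ligands Xcl1, Ccl25 and Ccl4. That count fell to 2 of 38, or 5.26% against 5.45% of all genes, when scaling used the probes that both arrays placed above background. Of all genes past 1.5-fold, 44.6% were on the higher side, 67.9% with that scaling, 62.2% with the median gene set to 0 and 28.7% with array median scaling. The members' median log2 difference was −0.24, and that of all 13033 genes above background on both arrays was −0.10.

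Just inside 1.5-fold lay Ccl4 at −0.60 ± 0.20, and just outside it Cx3cr1 at −0.58 ± 0.20 and Ccr3 at −0.58 ± 0.21, so which of them pass depends on hundredths of a log2 unit. The scanner error of a member above background on both arrays and printed once was 0.20 to 0.29. For 268 probes of the array that were printed 10 times and lay above background on both arrays, the spread of the log2 difference over repeated spots had a median SD of 0.17. Neither error measures how far spleens of 1 genotype differ among themselves.

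**Figure D2:**
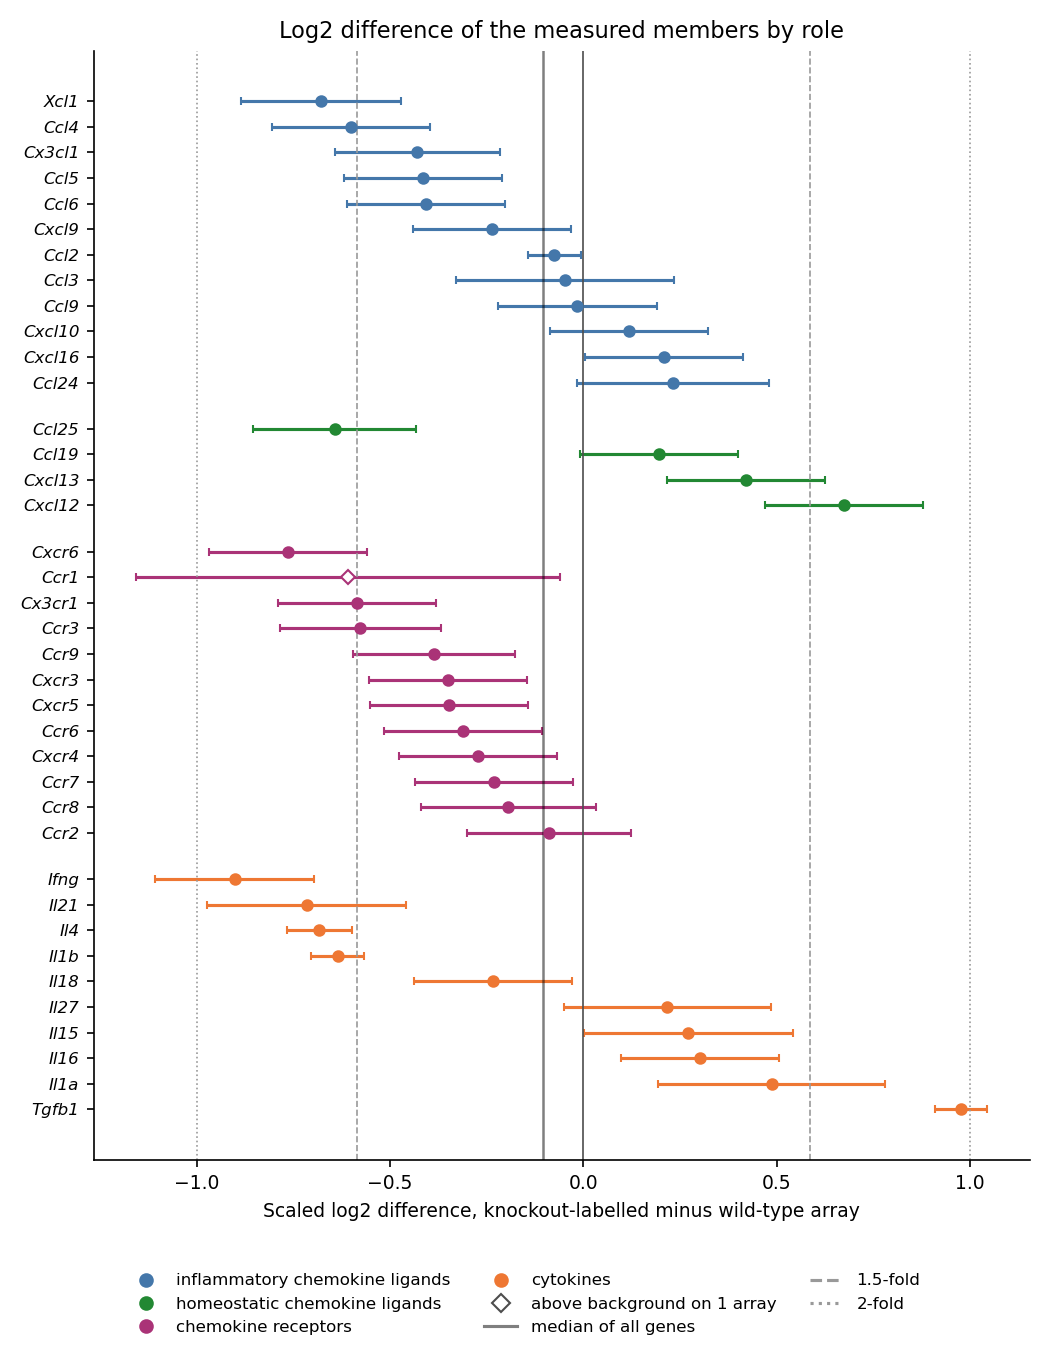
Scaled log2 difference (knockout-labelled minus wild-type array) of the 38 measured members by role. Bars are the scanner software's error, dashed and dotted lines mark 1.5-fold and 2-fold, the grey line is the median of all genes (−0.10), and the open diamond is Ccr1, above background on 1 array and drawn at its measured −0.61. All 12 receptor points lie left of 0, and no member passes a dotted line.

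Homeostatic ligands of the splenic stroma were on the higher side, apart from Ccl25. Cxcl12, the ligand of Cxcr4 that retains haematopoietic cells and plasma cells in their niches, gave 14838 in wild type and 34001 on the knockout-labelled array. This is a log2 difference of 0.67 ± 0.20, or 1.60-fold, and its other probe, for another transcript, was at 0.64. Cxcl13, which draws B cells into follicles, had signals of 7575 and 14565, in the same order, and a difference of 0.42 ± 0.20. It passed 1.5-fold in the deposited table (0.65), with loess (0.67) and with quantile normalization (0.64). Ccl19, which draws Ccr7-bearing T cells and dendritic cells into the T zone, had signals of 4606 and 7580. All 3 of its probes were above 0, from 0.16 to 0.23, but the mouse genome carries near-identical Ccl19 pseudogenes, so these probes may share signal with them.

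Ccl25, best known from thymus and small intestine, went the other way. Its signals were 502 and 462, a difference of −0.64 ± 0.21, and a second probe was not above background. Cxcl14 was not measured above background. The median of the 4 measured homeostatic ligands was 0.31, with 3 above 0, where 39.3% of all genes were above 0. Cxcl12, Cxcl13 and Ccl19 were above 0 under each of the 12 other settings tried, and Cxcl12 passed 2-fold with quantile normalization (1.01).

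Markers of stroma and endothelium had these values on the same arrays. Of 6 fibroblastic stroma markers 4 were above 0, where 39.3% of all genes were, with a median of 0.19. Ccl19 and Cxcl13 are themselves on that list and enter its count, median and sum. The others were divided, with Pdgfrb at −0.43, Pdpn at −0.41, Col3a1 at 0.18 and Col1a1 at 0.93. The summed level of the 6, in units of the array's 75th percentile signal, was 37.7 in wild type and 43.6 on the knockout-labelled array. Of 4 endothelial markers, 3 were above 0, with a median of 0.53 and summed levels of 8.13 and 9.67. The part of these cells in the values of Cxcl12 and Cxcl13 was not tested. In bulk tissue, fewer cells of a type and less RNA per cell cannot be told apart.

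Of the 12 measured inflammatory ligands 9 were below 0, against 60.7% of all genes, with a median of −0.16. That count was 6 of 12 when scaling used probes above background on both arrays or the median gene was set to 0, and 8 of 12 under 4 other settings. Xcl1, the ligand made by NK cells and activated CD8 T cells for cross-presenting dendritic cells, had signals of 741 and 665 and differed by −0.68 ± 0.21. Ccl4 (MIP-1beta), an attractant of T cells and monocytes, had signals of 30476 and 28874, nearly equal before scaling, and differed by −0.60 ± 0.20. With quantile normalization Ccl4 was at −0.25, and with the loess trend removed at −0.24. Ccl3 (MIP-1alpha), its neighbour and close relative, had signals of 142 and 198 and a difference of −0.05 ± 0.28.

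Other CC ligands lay between these values and 0 or above it. Ccl5 (RANTES), stored by cytotoxic lymphocytes and platelets, had signals of 15747 and 16980 and a difference of −0.41 ± 0.20. Ccl6, a myeloid cell ligand, had signals of 4676 and 5065 and likewise stood at −0.41. Its relative Ccl9 was at −0.02 and the monocyte attractant Ccl2, with 10 spots on each array, at −0.08 ± 0.07. The spot ranges of Ccl2 overlapped after scaling, whereas before scaling they did not. Its spots then ran from 275 to 357 in wild type and from 370 to 455 on the knockout-labelled array. Ccl24 (eotaxin-2) was at 0.23 ± 0.25.

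Among the ligands of Cxcr3, which Ifng induces, Cxcl9 and Cxcl10 did not share a sign. Cxcl9 was at −0.24 ± 0.20 and −0.15 with its other probe, while Cxcl10 was at 0.12 ± 0.20. Both lie within about 1 scanner error of 0. The transmembrane ligands differed in sign too, with Cxcl16 at 0.21 ± 0.20 and Cx3cl1 (fractalkine) at −0.43 ± 0.21.

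All 11 chemokine receptors above background on both arrays were below 0, as were 60.7% of all such genes, and their median was −0.35. Cxcr6, the receptor of Cxcl16 on NKT cells and effector T cells, gave 3305 in wild type and 2797 on the knockout-labelled array. Its difference was −0.76 ± 0.20, with the other probe at −0.58, and it was past 1.5-fold under all 12 other settings. Cx3cr1, a receptor of monocytes and macrophages, had signals of 4114 and 3941 with its brighter probe, a difference of −0.58. Its other probe was at 0.02 with signals of 348 and 505, so its direction depends on the probe. Ccr3, known from eosinophils and basophils, had signals of 860 and 828 and stood at −0.58 ± 0.21.

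Ccr1 cleared background in wild type only, with a signal of 56.3 there against 53.1 for the other array, nearly equal before scaling. Under the reported scaling its bound was 1.47-fold higher in wild type, a log2 difference of −0.55. That bound is no firm lower limit, since it was −0.41 when scaling used probes above background on both arrays and −0.32 with normexp. The bound sets the scaled wild-type signal against the higher of the dim spot and the lowest signal well above background on the other array. With a scanner error of 0.55 on its log2 difference, Ccr1 is the least precise of the 38.

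Ccr7, Cxcr5 and Ccr6 are receptors that place lymphocytes in the white pulp. Ccr7, which guides T cells to the T zone, had signals of 18883 and 23120 and was at −0.23 ± 0.20. Cxcr5, which guides B cells to follicles, had signals of 14193 and 16022 and was at −0.35 ± 0.20. Ccr6, of B cells and Th17 cells, had signals of 11388 and 13177 and was at −0.31 ± 0.20. The values of Cxcr5, Ccr6 and Ccr7 moved to −0.07, −0.07 and 0.07 with quantile normalization, so for Ccr7 the direction turned.

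The remaining receptors lay between −0.39 and −0.09. These were Ccr9, the gut-homing receptor, at −0.39, Cxcr3, the receptor of Th1 cells and NK cells, at −0.35, Cxcr4 at −0.27, Ccr8, known from Th2 and regulatory T cells, at −0.19 and Ccr2, the receptor of inflammatory monocytes, at −0.09. Ccr2 turned to 0.06 when scaled on probes above background on both arrays. Under 5 of the 12 other settings 1 receptor was above 0, either Ccr2 or Ccr7, and under the other 7 none of those measured was.

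Ligands and receptors were set side by side in 21 known pairs, a list written after the data had been seen, of which 10 had both partners above background on both arrays. In 6 of the 10 the ligand was above 0 and the receptor below it, and in the other 4 both were below. Since all these receptors were below 0, only the sign of the ligand could vary, and 39.3% of all genes were above 0. Cxcr3 is counted with Cxcl9 and again with Cxcl10. With quantile normalization Ccr7 was above 0 (0.07), so the pair of Ccl19 and Ccr7 then no longer had opposite signs. The stromal pairs were Cxcl12 at 0.67 with Cxcr4 at −0.27, Cxcl13 at 0.42 with Cxcr5 at −0.35, and Ccl19 at 0.20 with Ccr7 at −0.23. Cxcl16 at 0.21 and Cxcr6 at −0.76 lay apart in the same order. In contrast, Ccl25 (−0.64) and Ccr9 (−0.39) were both below 0, as were Cx3cl1 and Cx3cr1. The gap between a ligand and its receptor does not depend on the constant by which an array is scaled. Xcr1, the receptor of Xcl1, was measured above background in wild type only, with signals of 272 there and 54.4 on the knockout-labelled array. Under the reported scaling its bound was 7.08-fold higher in wild type. Like that of Ccr1, this bound moves with the scaling and is no firm lower limit. Xcr1 is also on the list of conventional dendritic cell markers, whose other genes mostly went the other way. Of the 5 above background on both arrays, 4 were above 0, with a median of 0.24, from Clec9a at −0.19 to Itgax at 0.92. The part of these cells in the value of Xcr1 was not tested.

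**Figure D3:**
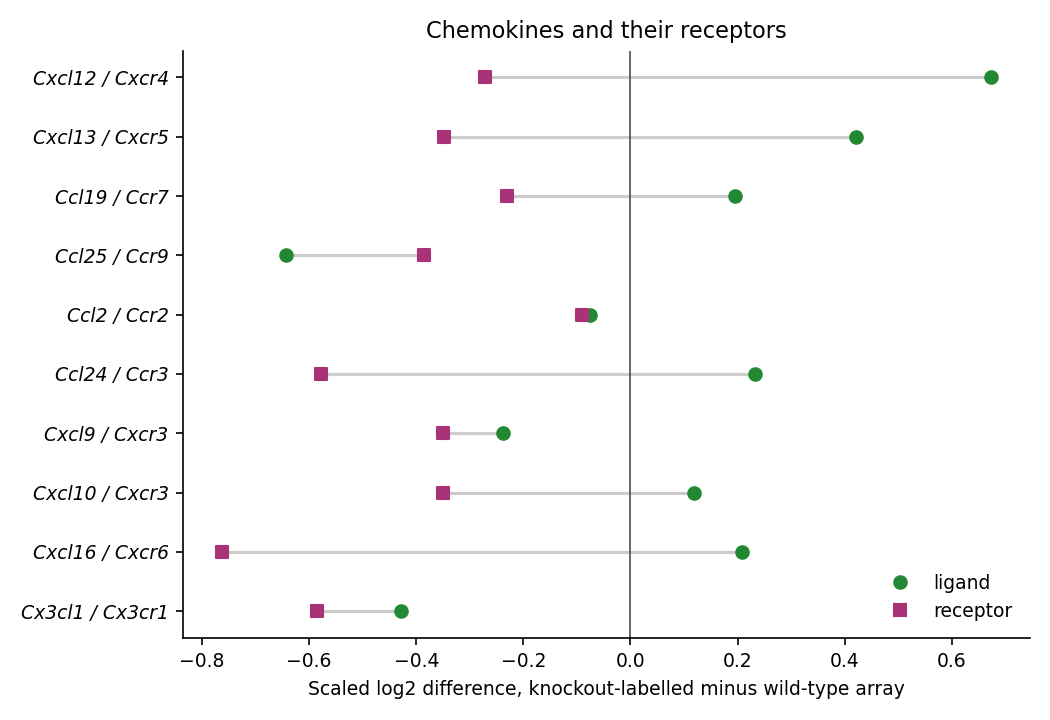
Scaled log2 difference (knockout-labelled minus wild-type array) of ligands (circles) and their receptors (squares) in the 10 pairs with both above background on both arrays. The grey line joins a pair. Cxcl12, Cxcl13, Ccl19, Ccl24, Cxcl10 and Cxcl16 lie right of 0 with their receptor left of it.

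Many chemokine genes sit in clusters, and neighbours did not share 1 value. In the row of receptor genes on chromosome 9 the order was Ccr9 (−0.39), Cxcr6 (−0.76), Xcr1, Ccr1, Ccr3 (−0.58) and Ccr2 (−0.09), by the RefSeq order of genes. In the CC ligand row on chromosome 11, Ccl5 (−0.41), Ccl9 (−0.02), Ccl6 (−0.41), Ccl3 (−0.05) and Ccl4 (−0.60) followed each other among the listed genes. On chromosome 5 the platelet chemokine genes Ppbp and Pf4 were at −1.83 and −1.78, while the members Cxcl9, Cxcl10 and Cxcl13 on that chromosome lay between −0.24 and 0.42.

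Among the cytokines, Tgfb1, an inhibitor of T cell activation and inducer of matrix genes, was the highest member under the reported setting, and Ifng, the macrophage-activating cytokine of Th1 and NK cells, the lowest. Cxcl12 stood above Tgfb1 in the deposited table (1.01 against 0.94), with loess (1.01 against 0.96), with quantile normalization (1.01 against 0.94) and with normexp (0.84 against 0.78). The 10 measured cytokines were evenly divided, 5 above and 5 below 0, where 39.3% of all genes were above 0. Their median was −0.01, and its sign depended on the processing. That median was 0.02 with quantile normalization and with the deposited values, and 0.04 with loess. When scaling used probes above background on both arrays it was 0.14, and with the median gene set to 0 it was 0.10. Like Il4 and Il1b, Tgfb1 was printed on 10 spots of 1 probe. Its error over spots does not show how another probe would read. Of the spots used, 10 on the wild-type array had signals of 349 to 472, with a median of 402, and 9 on the knockout-labelled array had signals of 1009 to 1248, with a median of 1156. The spot ranges did not overlap before or after scaling. The difference was 0.98, with an SE over spots of 0.05, or 1.97-fold, which lies just under 2-fold. Across the 12 other settings it ran from 0.78 to 1.12.

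Ifng gave 869 in wild type and 668 on the knockout-labelled array, a difference of −0.90 ± 0.21, or 1.87 times lower. Its signal was lower before scaling as well, and its scaled values ran from −0.996 to −0.756 under the other settings. Il21, the cytokine of follicular helper T cells, had signals of 225 and 197 and was at −0.72 ± 0.26. Il4, of Th2 cells and basophils, had 10 wild-type spots of 206 to 288 and 8 knockout-labelled spots of 179 to 227. Its difference was −0.68, with an SE over spots of 0.06, and after scaling the spot ranges did not overlap, whereas before scaling they did.

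Il1b, the inflammatory cytokine of neutrophils and macrophages, had 10 wild-type spots of 2930 to 5345 and 8 knockout-labelled spots of 3216 to 4064. Before scaling the knockout-labelled spots thus lay inside the wild-type range. After scaling the ranges parted narrowly, with a lowest wild-type spot of 1.59 and a highest knockout-labelled spot of 1.54. The wild-type spots spread widely, with an SD of 0.31 on the log2 scale against 0.09 on the other array, and 3 of them stood above the rest. The difference was −0.64, with an SE over spots of 0.10, and −0.51 with the median of the spots, which does not reach 1.5-fold. Nor did it with outlier spots kept (−0.54), quantile normalization (−0.50) or loess (−0.48). Il1b was past 1.5-fold under 5 of the 12 other settings. Il18, activated by the inflammasome like Il1b, had signals of 4440 and 5426 and was at −0.23 ± 0.20.

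The other cytokines above 0 did not reach 1.5-fold under the reported setting. Il1a, an alarmin, had signals of 78.0 and 157 and was at 0.49 ± 0.29. Across the other settings it ran from 0.19 with normexp to 0.63 when scaling used probes above background on both arrays, and it passed 1.5-fold there and with the median gene set to 0. Il16, a ligand of Cd4, had signals of 2492 and 4409 and was at 0.30 ± 0.20. Il15, which sustains NK cells and memory CD8 T cells, was at 0.27 ± 0.27 and Il27 at 0.22 ± 0.27, both within about 1 error of 0.

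**Figure D4:**
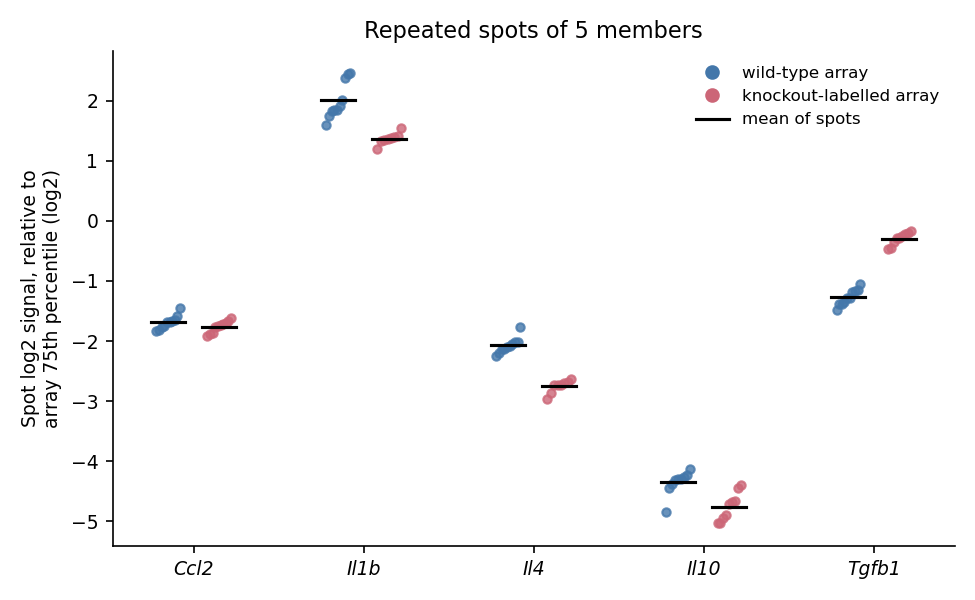
Log2 signal of each spot relative to the array's 75th percentile for the 5 members printed 10 times, on the wild-type array (blue) and the knockout-labelled array (red), with the mean as a bar. Spots are ordered by value. With this scaling the ranges of Tgfb1, Il4 and Il1b do not overlap between the arrays, and those of Ccl2 and Il10 do. Before scaling only those of Tgfb1, among the first 3, stay apart, and those of Ccl2 do not overlap then either. Il10 was not well above background.

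Marker lists of the cells that make these cytokines were read on the same arrays. None of 6 T cell markers measured passed 1.5-fold, and their median was −0.24, with summed levels of 42.4 in wild type and 36.3 on the knockout-labelled array. Of 6 NK cell markers, 2 were past 1.5-fold on the higher side, against 7.49% of all genes, and 4 were above 0, against 39.3%. The median of the NK cell markers was 0.21. Their summed levels were 18.7 and 13.4, so the median and the sum differ in direction. Most of the sum is Gzma alone, with signals of 16413 and 15779 and a difference of −0.58. Of 9 neutrophil and precursor markers, 7 lay 2-fold or more below wild type, against 1.98% of all genes. Their median was −1.62, with summed levels of 202 and 59.0. Of the 3 basophil markers measured, Mcpt8 and Prss34 cleared background in wild type only. The part of these cells in the values of Ifng, Il21, Il4, Il1b, Xcl1 and Ccl4 was not tested. On the knockout-labelled array, 9 of 9 measured markers of pancreas acinar cells were at least 2-fold higher, against 2.11% of all genes. Their summed levels were 6.71 in wild type and 104.9 on the knockout-labelled array. The part of such RNA in the members' values was not tested.

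Among the chemokine ligands outside the 49, those of platelets stood furthest apart. Of 6 measured, Pf4 and Ppbp stood 2-fold or more below wild type (33.3% against 1.98% of all genes). By its brightest probe no ligand was 1.5-fold higher. Ccl27a, a skin chemokine, was at −0.14 by that probe, with its others between 0.03 and 0.63. All 5 platelet markers, on which Pf4 and Ppbp also stand, passed 1.5-fold on the lower side, against 9.29% of all genes. Their summed levels were 44.1 and 13.02. Of 10 other and atypical receptors, Xcr1 was at least 2-fold lower, Cxcr1 had a bound of 1.62-fold lower, and Ackr4, a scavenger of Ccl19 and Ccl25, was at 0.72 ± 0.38. Their median was −0.13 over the 8 above background on both arrays.

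Signalling genes downstream of chemokine receptors lay on both sides of 0. Of 24 measured, 1 was at least 2-fold lower (4.17% against 1.98% of all genes) and none 2-fold higher. Among those above background on both arrays 12 were below and 11 above 0, where 39.3% of all genes were above 0. Their median was −0.01, and 0.17 with quantile normalization and 0.19 with loess. The lower one was Rgs18, a regulator of G protein signalling known from platelets, at −1.05 ± 0.20. Pik3cg, the PI3 kinase subunit that Gbetagamma activates, was at 0.75 ± 0.21 and at 1.31 with its other probe. Elmo1, which acts with Dock2 in Rac activation, cleared background on the knockout-labelled array only and had a bound of 0.73. Other probes of Gnb1, Grk6 and Dock2 were at 0.73, 0.65 and 0.62, against 0.10, 0.15 and 0.41 with the brightest.

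Of 19 measured receptors and inhibitors of the listed cytokines, Il2rg, the chain shared by the receptors of Il4, Il15 and Il21, was the single gene at 2-fold by its brightest probe. It had signals of 1208 and 4684 and was at 1.43 ± 0.20 with a single probe. Tgfbr1, a receptor of Tgfb1, was at −0.37 with its brightest probe and at 1.80 with the other, so its direction depends on the probe. Il15ra was at −0.93 and at 0.15 with its other probe, and Il18r1 was at −0.77. Among 8 inflammasome genes, 7 were below 0, against 60.7% of all genes, with a median of −0.29. That median was −0.14 when scaling used probes above background on both arrays. At 1.5-fold, 3 of the 8 were lower, or 37.5% against 9.29% of all genes. Nlrp1b was at −1.32 ± 0.26 but at 0.46 with its other probe, and Pycard (−0.66) and Casp4 (−0.63, its other probe −0.64) passed 1.5-fold. Of 11 other cytokine genes measured, none reached 2-fold, and the largest were Il12a, which cleared background on the knockout-labelled array only and had a bound of 0.77, and Tnf, at 0.57 ± 0.07.

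**Figure D5:**
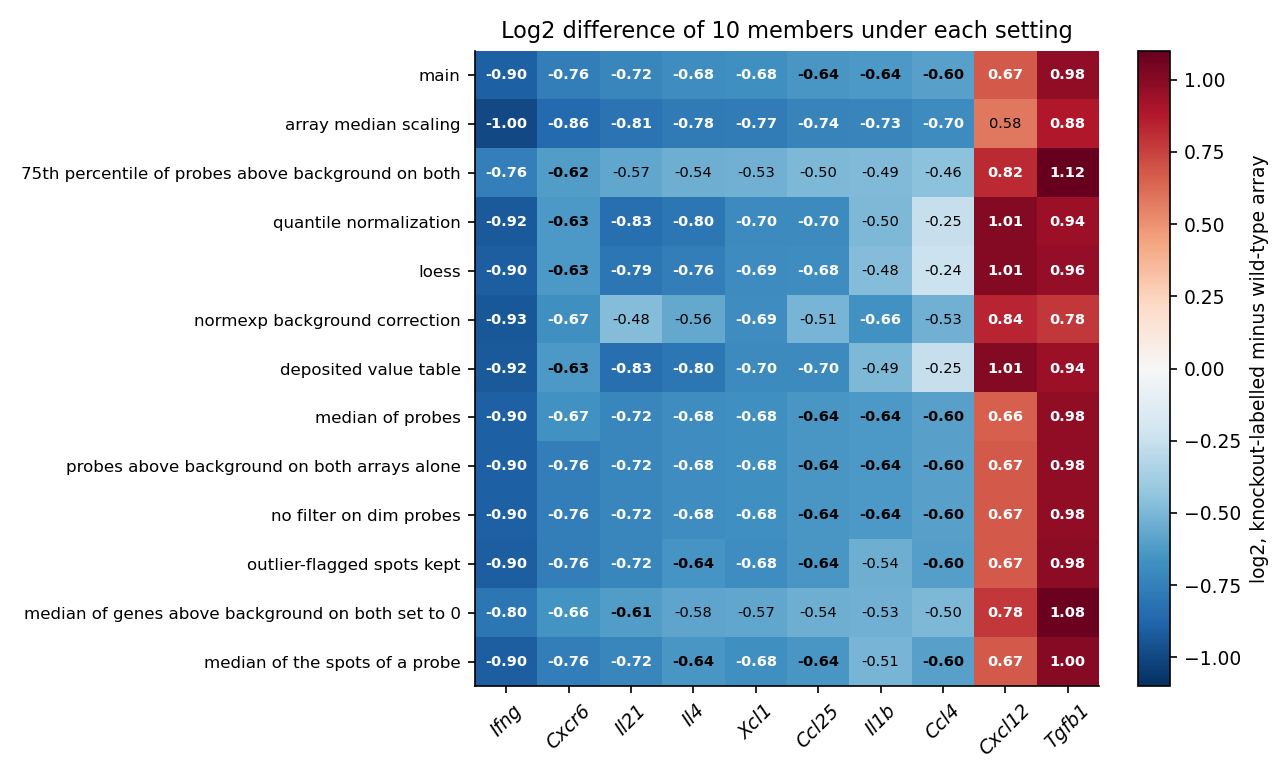
Log2 difference (knockout-labelled minus wild-type array, colour and number) of the 10 members past 1.5-fold, under the reported setting (main) and 12 others. Bold numbers are past 1.5-fold. Ifng, Cxcr6 and Tgfb1 are bold throughout, Ccl4 falls to −0.24 with loess, and no column changes sign.

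Of the 10 members past 1.5-fold, all kept their sign under the 12 other settings, but 3 of them stayed past 1.5-fold under every one: Ifng, Cxcr6 and Tgfb1. Cxcl12 did so in all but array median scaling, where it was at 0.58, just short. The deposited value table, which the authors made, gave the same signs for all 10, but its values nearly repeat quantile normalization. The 12 settings are therefore not independent checks. Changes of the background filter left these 10 values as they were. Rescaling by another array constant moved every gene alike, by too little to turn the sign of a value past 1.5-fold.

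For the arrays as a whole, the probe for Loxl3 had signals of 117 and 125 and a scaled difference of −0.43 ± 0.29. No source used here says whether this probe falls within the deletion, and the array is therefore called knockout-labelled. Of all probes, 54.7% in wild type and 56.8% on the knockout-labelled array were well above background. Of the markers of spleen cells, 6 of 6 B cell, 6 of 6 measured T cell and 6 of 6 red pulp macrophage markers were above background on both arrays, as were 9 of 9 measured markers of pancreas acinar cells.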

How the data were processed

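Total RNA of fresh spleens was labelled with Cy3 and hybridised to 1-colour Agilent arrays, 1 per genotype, per the labels' protocols. The scanner files hold linear intensity values for each spot, already background-corrected and not normalized between arrays, and were made by Feature Extraction 11.0.1.1 with protocol GE1_1100_Jul11 and probe positions on mm9, per the file headers. Values in the deposited table are log2, and each column has a median of 6.71. Its steps were read from its values, which matched log2 signals quantile-normalized between the arrays, with 3 of 39420 probes off by over 1.

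Non-control spots not marked as outliers by the software (43020 spots per array, 110 and 132 of them left out) were averaged on the log2 scale per probe. The array's 75th percentile was subtracted. No spot was saturated. A probe printed 10 times counted as above background where most of its spots did. Probe accessions, versions dropped, were looked up in RefSeq (GRCm38.p6), naming 27226 of 39420 probes. Each gene took its brightest probe among those above background on at least 1 array. 

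With 1 array a group no p-value can be had, and genes were counted at 2-fold and 1.5-fold. A gene above background on 1 array was counted by its bound. The number of arrays limits the precision. The 49 members, the pathway and marker lists, the roles, the ligand and receptor pairs, the motifs and the rule for named genes were chosen with earlier results of these data known. By that rule members past 1.5-fold, above background on 1 array, among the 3 brightest of their role, or with probes of opposite sign past 0.3 are given with both signals; pathway genes past 2-fold, or the 2 largest, are named. Signals of further members, and pathway and marker genes beyond the rule, were chosen after their values were seen. So were the printed promoters and the pairs. The pairs of 1 receptor gene are not reported here. Of the 12 alternatives, 10 were planned (scaling, quantile, loess with a span of 0.3, normexp with an offset of 50 in limma 3.58.1, the deposited table, the filter and the probe of a gene, and outlier spots) and 2 were chosen after seeing the data. Normexp used median signals, the ones the files hold. The calculation was tested on simulated data with planted changes larger than 2-fold, counted at 2-fold. That test does not show how calls at 1.5-fold perform. Tools were Python 3.11.15 with pandas 2.3.3, and R 4.3.3.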

Additional observations from a re-analysis of the deposited data

How the results depend on the processing

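Of the 38 measured members, 33 kept their sign under every alternative that gave them a value (all 12, or 11 for Ccr1, which has none among probes above background on both arrays alone), and 5 (Ccl2, Ccl3, Ccl9, Ccr2 and Ccr7) changed it under at least 1. No member past 1.5-fold changed sign, though several settings leave such values unchanged or shift all genes alike by a small constant. The count of members at least 2-fold higher, 0 as reported, was 1 when scaling used only probes that both arrays placed above background, with the median gene set to 0 or with the median of spots (Tgfb1 in each), and 1 with quantile normalization, loess or the deposited table (Cxcl12). Without a filter on dim probes 1 member, Ccl20, was 2-fold lower, from a probe not above background, and the cytokines' median was −0.32. Members 1.5-fold lower, 8 as reported, were 2 when scaled on probes above background on both, 3 with the median gene set to 0, 4 with normexp and 11 with array median scaling. Members 1.5-fold higher, 2 as reported, were 1 with array median scaling and 3 under 5 settings: quantile normalization, loess and the deposited table (with Cxcl13), and scaling on probes above background on both and the median gene set to 0 (with Il1a). The homeostatic ligands' median, 0.31 as reported, was 0.51 with quantile normalization, 0.53 with loess and 0.51 with the deposited table. Scaling moved the median of all genes from −0.20 (array median) to 0.04 (probes above background on both). Setting the median gene to 0 and taking the median of spots were chosen after seeing the data. No paired analysis was possible because each group holds 1 array. For the same reason no array could be left out.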
